A study of Homo sapiens and Mus musculus with 13 samples.

Results

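The transcriptome of untreated mammary tumors was described from 3 MMTV-PyVT mice that were wild type for Trim11. These 3 tumors, called WT1, WT2 and WT3 in the labels, were the only members used, out of 13 samples in the series. They were chosen by genotype alone, so no measured value entered the choice. Of 55228 gene symbols, 15224 had a mean of at least 1 FPKM over the 3 tumors, and the spread among tumors was described on these genes. FPKM is the number of fragments scaled to length and library size. Here the values were whole reads divided by the summed exon length of the gene and the library total, so a gene with long exons that few of its transcripts use is understated beside other genes.

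The study asked what the ubiquitin ligase TRIM11 does in breast cancer and used Trim11+/+ tumors as the reference for Trim11+/- tumors, which were not analysed here. All 3 tumors came from female hybrid mice of C57BL/6N and FVB/N background, bred after several generations of backcrossing, at an age of 3 months, with the Trim11+/+ genotype and the MMTV-PyVT transgene and with no treatment. The labels write the transgenic line as 634Mul/J for WT1, 635Mul/J for WT2 and 636Mul/J for WT3, whereas the methods name a single line, and these numbers were not used as batches. A mouse of this model bears several tumors, and whether 1 or more tumors went into a library is not given in the sources used here. The 3 libraries held 10927134, 10166606 and 10036103 reads on genes. Each value therefore rests on a like depth, and 1 read on a transcript of 1 kilobase was worth 0.0915, 0.0984 and 0.0996 FPKM.

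In this model the promoter of mouse mammary tumor virus drives the polyomavirus middle T antigen in mammary epithelium. Middle T antigen is a membrane-bound oncoprotein that recruits SRC family kinases, SHC1, PI3 kinase, phospholipase C gamma and protein phosphatase 2A, and so acts much like an activated receptor tyrosine kinase. The tumors are known to be multifocal adenocarcinomas of luminal character, and they grow within a fat pad that also holds ducts, adipocytes, fibroblasts, vessels and leukocytes. No row of the table is named for the transgene, so its own level could not be given. In bulk tumor, fewer cells of a type and less RNA per cell cannot be told apart.

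The most abundant transcripts were those of mitochondria, of the translation machinery and of secretory mammary epithelium. The 791 most abundant genes made up 50% of the summed mean FPKM, and the number was 814, 758 and 761 in WT1, WT2 and WT3 taken singly. Mitochondrially encoded genes took 4.96% ± 0.351 of the summed FPKM (SD, n = 3) and ribosomal protein genes took 9.66% ± 0.978. mt-Co1, a subunit of cytochrome c oxidase, was highest at 5004, 5902 and 5260 FPKM. Among other genes, the elongation factor Eef1a1 was first with 2837, 2668 and 2582 FPKM, a mean of 2696 ± 130 (SD, n = 3).

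Secreted proteins of milk and of mammary epithelium followed directly. Trf, the iron carrier transferrin, was measured at 2749, 2465 and 2704 FPKM. Lcn2, which encodes the siderophore-binding lipocalin 2, reached 1511, 1781 and 1780 FPKM. Wfdc18, a small whey acidic protein domain protein, reached 1205, 1196 and 1028 FPKM. These 3 genes were nearly as even as the elongation factor, with CVs of 5.79%, 9.21% and 8.70%. The CV is the SD over the 3 tumors divided by the mean, and its largest possible value with 3 tumors is 173%.

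Other genes of the same rank were not even. Spp1, which encodes the matrix phosphoprotein osteopontin, stood at 694, 2613 and 4394 FPKM. It was the most abundant of the 25 leading genes in WT3, and its highest and lowest tumors were 6.33 times apart. Lalba, the lactose synthase subunit alpha-lactalbumin, stood at 227, 956 and 1033 FPKM. Igfbp5, a secreted binder of insulin-like growth factors, stood at 759, 1540 and 1585 FPKM. Csn3, the micelle-stabilizing kappa-casein, stood at 1434, 2526 and 2428 FPKM. All 4 were lowest in WT1, and WT2 and WT3 were close to each other in all but Spp1.

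**Figure D1:**
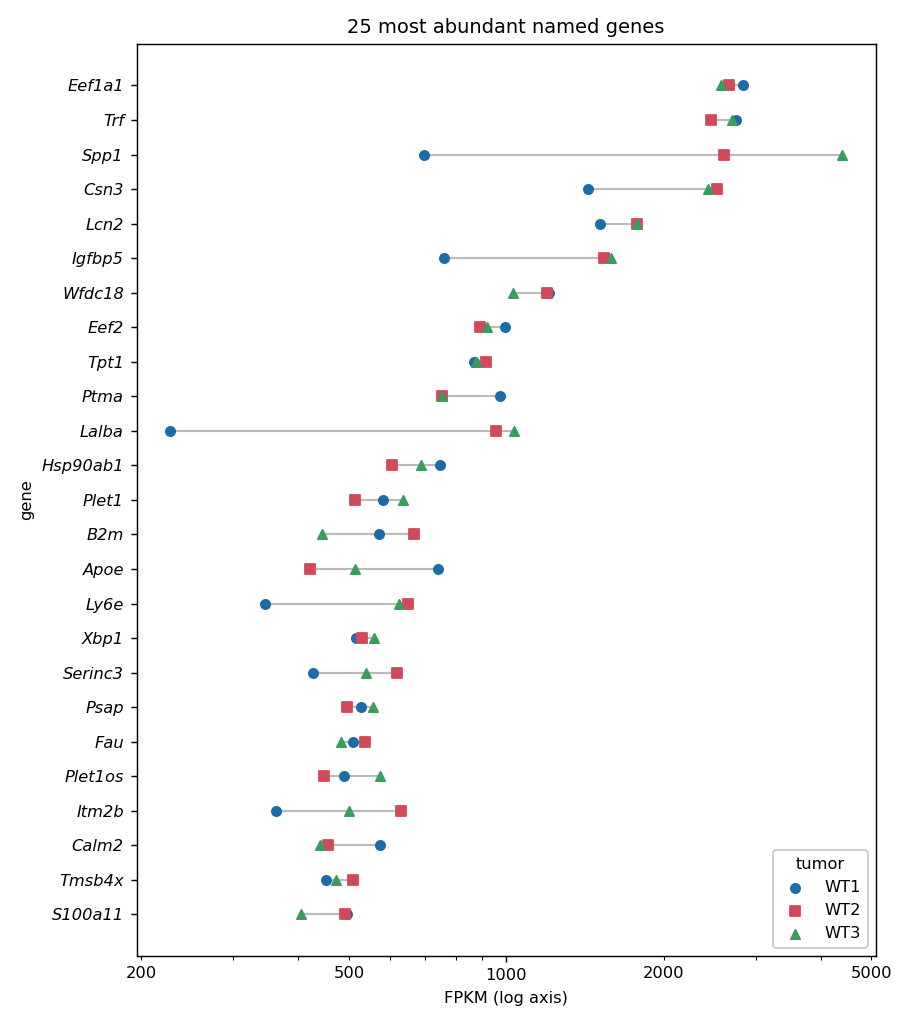
FPKM of the 25 most abundant genes in each tumor, on a log axis, without mitochondrial, ribosomal protein, small RNA and unnamed genes. Points are the 3 tumors and the grey line spans them. Eef1a1 and Trf were nearly even, whereas Spp1 ran from 694 to 4394 FPKM and Lalba from 227 to 1033 FPKM, both lowest in WT1.

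The remaining genes of the 25 most abundant stood between 465 and 933 FPKM on average. They included Eef2 and Tpt1 of translation and growth, the histone-binding prothymosin Ptma, the chaperone Hsp90ab1, the secretory regulator Xbp1, and B2m, the light chain of MHC class I. Tpt1 was the most even of them with 868, 913 and 874 FPKM and a CV of 2.75%. Apoe, a lipid carrier made in quantity by macrophages, was highest in WT1 with 741 FPKM against 420 and 512. Ly6e, a membrane protein induced by interferon, was lowest in WT1 with 346 FPKM against 649 and 623. Plet1, a surface protein of epithelial progenitors, stood at 580, 513 and 636 FPKM, but the opposite strand carries Plet1os at 489, 448 and 572 FPKM. The libraries did not keep the strand, so reads of this gene and its antisense partner cannot be told apart. Chil1, a secreted chitinase-like glycoprotein, fell just outside the 25 and was one of the least even abundant genes, with 50.5, 719 and 541 FPKM.

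Epithelial identity was clear and largely shared by the tumors. All 14 pan-epithelial genes were above 1 FPKM on average, where 15224 of all 55228 symbols were. Their summed levels were 2475, 1921 and 2180 FPKM. Epcam, an epithelial adhesion molecule and the most abundant of them, stood at 489, 445 and 408 FPKM, and the luminal keratins Krt8 and Krt18 averaged 441 ± 99.1 and 397 ± 44.9 FPKM (SD, n = 3). The tight junction gene Cldn7 was the most even member, with 98.5, 89.1 and 94.1 FPKM and a CV of 5.03%. In 3 of the 14 genes the highest tumor was at least 2 times the lowest, where 14.8% of all 15224 genes had such a span. The least even of the 3 was Cldn4, another claudin, with 131, 35.4 and 63.7 FPKM.

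The labelled mammary tissue fitted its defining markers. Sox10 and Elf5, transcription factors of the luminal progenitor and alveolar lineage, averaged 165 ± 8.47 FPKM (SD, n = 3) and stood at 90.1, 110 and 95.7 FPKM, respectively. Gata3, the regulator of luminal fate, was measured at 43.9, 55.9 and 52.4 FPKM. Esr1, the estrogen receptor, was near 1 FPKM, with values of 1.005, 1.742 and 1.050.

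Luminal progenitor and alveolar genes were lowest in WT1 in 7 of 10 members, where 33.3% of all genes were lowest in that tumor. Mfge8, the milk fat globule protein lactadherin, stood at 146, 434 and 265 FPKM. Kit, the stem cell factor receptor, stood at 22.9, 49.5 and 28.5 FPKM. Btn1a1, the butyrophilin of milk fat secretion, was the least even member with 37.5, 75.6 and 19.2 FPKM. These 3 genes shared WT2 as their highest tumor. Sox10 was at the other end of the list with a CV of 5.13%.

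Hormone-sensing luminal cells are a distinct ductal population that reads estrogen and progesterone and signals to its neighbors. Their genes were highest in WT2 in 7 of the 8 members that had a mean of at least 1 FPKM, where 31.4% of all genes were highest in WT2. Areg, the growth factor amphiregulin that acts downstream of the estrogen receptor, was measured at 0.753, 22.7 and 0.820 FPKM, from 10, 280 and 10 reads. Foxa1, the pioneer factor of the estrogen receptor, had 1, 197 and 45 reads, or 0.0275, 5.82 and 1.35 FPKM. Tnfsf11, the RANK ligand by which these cells signal to progenitors, had 1, 94 and 8 reads. WT2 was the single high tumor for Areg and Tnfsf11, with WT3 between the others for Foxa1. Areg and Tnfsf11 were under 1 FPKM in WT1 and WT3, so they met the minimum only through WT2 and had to be highest there. The share over all genes does not allow for this.

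The further members of this list divided by gene. Cited1, a transcriptional cofactor of the estrogen receptor, had 1, 158 and 17 reads, and it too met the minimum only through WT2. Pgr, the progesterone receptor, and Wnt4, a ligand induced by it, were below 1 FPKM on average, with 6, 123 and 8 reads and with 1, 87 and 22 reads. Gata3 and the prolactin receptor Prlr, which other luminal cells express too, were far more even, with CVs of 12.2% and 12.9%. Prom1 was the only member with its highest level in WT1, at 14.2 FPKM against 6.83 and 7.69.

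Milk protein genes were high as a group but differed by class. Mammals make calcium-sensitive caseins, encoded by Csn1s1, Csn1s2a, Csn1s2b and Csn2, and the kappa-casein Csn3 that keeps their micelles in solution. The first 45 coding bases are shown because they set these classes apart by sequence: they encode the start of the secretion signal, and capitals mark the 31 positions at which Csn1s1, Csn1s2a and Csn2 carry the same base. The sequences run 5′ to 3′ from the start codon and were read from GENCODE M21 transcripts, built on mm10.
Csn1s1: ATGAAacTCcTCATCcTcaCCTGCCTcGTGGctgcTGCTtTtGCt
Csn1s2a: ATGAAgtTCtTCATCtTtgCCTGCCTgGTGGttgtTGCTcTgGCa
Csn2: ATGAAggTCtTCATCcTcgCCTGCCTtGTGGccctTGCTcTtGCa
Csn3: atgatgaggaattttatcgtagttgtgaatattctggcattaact

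Between pairs of the calcium-sensitive genes, 73.3% to 82.2% of these bases were the same, against 33.3% to 37.8% between each of them and Csn3 without gaps. All 4 genes lie in the casein cluster of chromosome 5, at chr5:87666208-87682578 on the plus strand for Csn1s1, chr5:87774567-87788797 on the plus strand for Csn1s2a, chr5:87692624-87699630 on the minus strand for Csn2 and chr5:87925579-87932665 on the plus strand for Csn3. The bases shown are coding exon sequence.

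The expression of the 2 classes differed as well. Csn2, beta-casein, stood at 0.674, 63.8 and 11.9 FPKM, a span of 94.7 times. Csn1s2a stood at 0.496, 54.9 and 5.15 FPKM. Csn1s1 stood at 4.38, 53.5 and 17.6 FPKM. The order WT2, WT3, WT1 was common to these 3 genes, with no tumor near another. Csn3 had the same order but spanned only 1.76 times, and its mean of 2129 FPKM was far above the 25.5 FPKM of Csn2. The fourth calcium-sensitive gene, Csn1s2b, was under 1 FPKM in every tumor.

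Whey proteins and the antimicrobial Ltf completed this list. Wap, the whey acidic protein, stood at 40.7, 49.9 and 92.5 FPKM and Ltf, lactoferrin, at 269, 312 and 361 FPKM. Glycam1, a mucin-like milk protein, had 0, 107 and 10 reads. It met the minimum mean of 1 FPKM only through WT2, so its wide span followed from that minimum. All 8 milk protein genes with a mean of at least 1 FPKM were lowest in WT1, where 33.3% of all genes were lowest. A span of at least 2 times was found in 6 of 8, against 14.8% of all genes. The summed level was 1976, 4022 and 3950 FPKM, of which Csn3 alone gave 64.2%. The calcium-sensitive caseins thus had WT2 as the single high tumor, whereas the sum over the list was like in WT2 and WT3.

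Basal keratin and contractile genes, which both mark myoepithelium in the normal gland, did not move together among the tumors. Krt14, the most abundant basal keratin, stood at 59.2, 53.2 and 91.1 FPKM and Krt5 at 105, 29.2 and 62.5 FPKM. Trp63, the transcription factor that defines basal cells, was even at 4.49, 4.72 and 5.47 FPKM. Cdh3, P-cadherin, had the largest CV of the list at 60.9%. Of the 7 basal genes with a mean of at least 1 FPKM, 2 were highest in WT1 and 5 in WT3. Over all genes these shares were 43.4% and 25.2%. Krt15, a further basal keratin and one of the 20 genes with the largest CV at a mean of at least 5 FPKM, stood at 25.3, 2.50 and 5.81 FPKM.

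Contractile genes were highest in WT1 in 7 of 8 members, where 43.4% of all genes were highest in that tumor. Acta2, smooth muscle actin, was measured at 138, 36.5 and 21.6 FPKM. Tagln, the actin-binding transgelin, was measured at 63.2, 24.7 and 18.6 FPKM. Cnn1, calponin, was measured at 16.5, 3.45 and 1.09 FPKM. WT1 lay far above the others in each, and WT3 was lowest in all 7. Actg2 of the same list was under 1 FPKM in WT2 and WT3, so it met the minimum only through WT1 and had to be highest there. All 8 genes of the list spanned at least 2 times, where 14.8% of all genes did. Even the least variable of them, the oxytocin receptor Oxtr, spanned 2.56 times. Des, the intermediate filament desmin that skeletal muscle also makes, was the exception with 0.683, 3.20 and 9.53 FPKM.

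**Figure D2:**
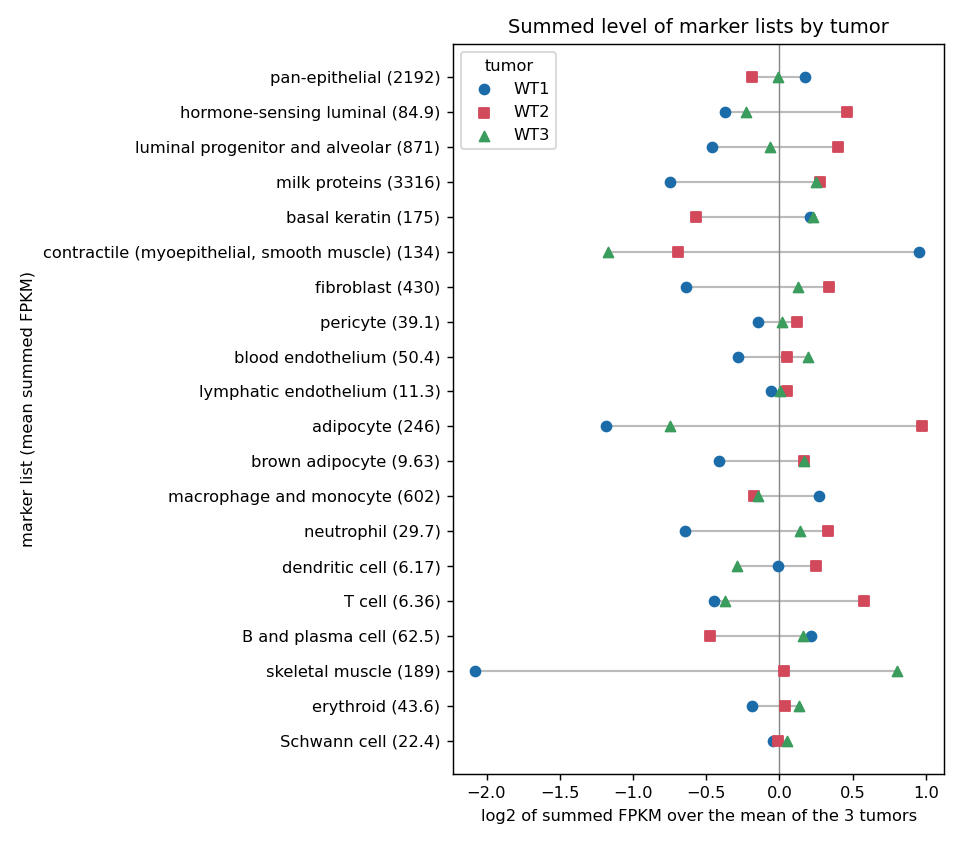
Summed FPKM of each marker list in the 3 tumors, as log2 of its ratio to the mean of the 3, for lists with a mean sum of at least 5 FPKM (mean sum in parentheses). Points are tumors and the grey line spans them. Contractile genes were high in WT1, adipocyte genes in WT2 and skeletal muscle genes in WT3, whereas Schwann cell and pericyte lists lay close to 0.

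Adipocyte genes were highest in WT2 in 10 of 10 members, where 31.4% of all genes were highest in that tumor. Cfd, the adipokine complement factor D, was the most abundant at 40.2, 270 and 60.4 FPKM. Adipoq, adiponectin, stood at 4.70, 29.3 and 7.72 FPKM, and Fabp4, the fatty acid carrier of fat cells, at 6.67, 56.0 and 14.1 FPKM. WT1 and WT3 were low in all 3 genes and WT2 stood alone. In 8 of 10 genes the span was at least 2 times, where 14.8% of all genes had such a span. The least even was leptin, Lep, with 3, 182 and 13 reads. It was under 1 FPKM in WT1 and WT3, so it met the minimum only through WT2 and had to be highest there. Pnpla2, a triglyceride lipase that many cells express, was the most even with a CV of 12.4%. The summed level of the list was 108, 483 and 146 FPKM. Lpl, Cdo1 and Sncg, outside the list but known from adipose tissue and among the same 20 genes of largest CV, were likewise highest in WT2. They were picked from genes chosen for that CV, so they are no separate support. The brown fat gene Ucp1 was at 0 in WT1 and WT2 and at 0.305 FPKM in WT3, and Cox8b, the most abundant of 4 brown fat genes, averaged 6.83 ± 1.51 FPKM.

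The hormone-sensing luminal genes and the adipocyte genes therefore shared WT2 as their high tumor, as did mast cell genes at low levels. Cma1, mast cell chymase, was measured at 0.420, 2.62 and 1.01 FPKM and Mcpt4, another mast cell protease, at 0.248, 2.66 and 0.899 FPKM. Mcpt4 met the minimum mean of 1 FPKM only through WT2. The share of normal mammary tissue in the 3 samples is not given in the sources used here, and its part in these values was not tested.

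Skeletal muscle genes were lowest in WT1 in all 12 members, where 33.3% of all genes were lowest. All 12 spanned at least 2 times, against 14.8% of all genes. In 10 of 12 the highest tumor was WT3, where 25.2% of all genes were highest. Acta1, skeletal actin and the most abundant of the list, was measured at 10.1, 46.8 and 110 FPKM. Mylpf, a fast myosin light chain, stood at 3.88, 16.3 and 44.6 FPKM and Ckm, muscle creatine kinase, at 2.36, 14.2 and 21.1 FPKM. WT1 was far below both others in each. Mb, myoglobin, was the least variable member and had its highest level in WT2, with 10.6, 23.2 and 11.9 FPKM. The sum over the list was 44.8, 193 and 329 FPKM. Transcripts of a tissue that is not mammary were thus present in each library, and their part in other differences was not tested.

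Fibroblast genes were lowest in WT1 in 13 of 13 members, where 33.3% of all genes were lowest in that tumor. Collagen genes led the list, with Col3a1 at 59.0, 124 and 101 FPKM and Col1a1 at 30.5, 79.7 and 78.6 FPKM. Postn, the matrix protein periostin, stood at 59.5, 99.3 and 104 FPKM. WT2 and WT3 were close for these genes and WT1 lay below both. The whole list did not share this. Dcn stood at 17.8, 32.8 and 18.1 FPKM and Mfap5 at 10.4, 15.5 and 11.4 FPKM, with WT3 near WT1. The span reached 2 times in 5 of 13 genes, where 14.8% of all genes had such a span. The widest CV was in Dpt, dermatopontin, at 10.8, 30.2 and 19.0 FPKM. Col6a1, a collagen of the pericellular matrix, had the narrowest with 16.5%.

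Vessel genes were measured at lower levels than collagens. Plvap, a protein of endothelial diaphragms, stood at 15.2, 13.4 and 20.3 FPKM and Pecam1, the endothelial adhesion molecule CD31, at 4.35, 5.80 and 5.31 FPKM. None of 11 blood endothelium genes and none of 5 pericyte genes spanned 2 times, where 14.8% of all genes did, so few such genes would be found in lists of this size. The median CV of the endothelial genes was 25.7%, against 13.6% over all genes. In 9 of the 11 endothelial genes WT1 was the lowest tumor, where 33.3% of all genes were lowest in WT1, and their CVs ran from 13.8% in the receptor Tie1 to 36.6% in the tight junction gene Cldn5. The pericyte receptor Notch3 had a CV of 0.501%, and the channel subunit Abcc9 was the least even of the list with 27.1%. Of 5 lymphatic genes, Lyve1 and Pdpn had a mean of at least 1 FPKM, where 15224 of all 55228 symbols did.

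Macrophage genes had the largest summed level of the leukocyte lists, with 727, 535 and 545 FPKM. Lyz2, lysozyme of myeloid cells, stood at 346, 235 and 242 FPKM, and C1qa, a chain of the first complement component, stood at 163, 110 and 133 FPKM. The receptor Csf1r that macrophages need for survival was even, with 13.6, 12.3 and 12.7 FPKM. In none of the 12 genes did the tumors span 2 times, where 14.8% of all genes did, and 8 of 12 were highest in WT1, where 43.4% of all genes were. Neither count is far from these shares for a list of this size. Ccr2, a receptor of monocytes, was the least even member with 2.396, 4.074 and 2.226 FPKM. Arg1, arginase, which macrophages can make and which was not in this list, departed from it with 138, 22.1 and 21.5 FPKM. WT1 was 6.40 times above WT3 for this gene, and its 1444 reads on average gave a counting CV of only 2.63% against a CV of 111%. The counting CV is the spread that drawing reads would give alone, 100 divided by the square root of the mean reads.

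A mean of at least 1 FPKM was reached by 1 of 10 T cell, 3 of 9 B cell and 3 of 9 neutrophil genes. Over all symbols, 15224 of 55228 reached it, so these counts are not far from that share for lists of this size. Ly6g of neutrophils had 0 reads in all 3 tumors, which allows up to 0.291, 0.313 and 0.317 FPKM, from 3 reads and for counting error only. Cd3e, a chain of the T cell receptor complex, had 7, 8 and 3 reads. Among 10 T cell genes only Foxp3 passed a mean of 1 FPKM, at 2.38, 2.15 and 2.33 FPKM. Foxp3, at chrX:7573644-7595245, overlaps the end of Ccdc22 on the opposite strand, at chrX:7593809-7605517, and without strand the reads of the overlap cannot be told apart. Ccdc22 itself was listed at 0.267, 0.230 and 0.233 FPKM.

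Of 7 dendritic cell genes only Itgax, an integrin that macrophages share, passed 1 FPKM on average, with 4.08, 4.42 and 3.17 FPKM. Over all symbols, 15224 of 55228 had such a mean, so few would be found in lists of this size. None of 5 lymph node stroma genes had a mean of at least 1 FPKM, and Ccl19, a chemokine of lymph nodes, had no reads. S100a8, a calcium-binding protein of neutrophils and some epithelia, stood at 10.2, 34.0 and 28.0 FPKM, whereas its partner S100a9 stood at 5.43, 1.70 and 2.67 FPKM. The antibody light chain gene Igkc gave 82.9% of the B and plasma cell sum, with 60.4, 33.5 and 61.6 FPKM. The antibody joining chain gene Jchain stood at 5.78, 4.96 and 5.19 FPKM and the heavy chain gene Ighm at 4.90, 5.58 and 2.91 FPKM. The cytotoxic genes Gzmb and Nkg7, the only 2 of 7 with a mean of at least 1 FPKM, were highest in WT2. They reached 4.32 and 2.58 FPKM there and were below 1.5 FPKM in both other tumors. These values rest on 22, 63 and 9 reads and on 10, 24 and 4 reads. Prf1 and Eomes of the same list were highest in WT1, with 4, 0 and 1 reads and with 8, 4 and 2 reads. The checkpoint receptor gene Havcr2, which myeloid cells also express, was the only 1 of 6 checkpoint genes above 1 FPKM on average, at 2.46, 2.82 and 2.78 FPKM.

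Erythroid, nerve and skin genes bounded the rest. The beta-globin Hbb-bs, the most abundant red cell gene, averaged 22.5 ± 1.93 FPKM (SD, n = 3) and was even. Hba-a1 averaged 15.0 ± 2.81 FPKM and its near-identical copy Hba-a2 at 0.137, 0 and 0 FPKM, so the division of reads between the copies is uncertain. Of 4 Schwann cell genes with a mean of at least 1 FPKM, none spanned 2 times, where 14.8% of all genes did. Cdh19 led them with 8.21, 10.9 and 9.31 FPKM. The epidermal genes Flg and Ivl were at 0 or near 0, and Krt10, a keratin of differentiating epidermis, averaged 2.58 ± 1.08 FPKM.

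Proliferation genes moved together and were highest in WT1. All 20 genes had their highest level in that tumor, where 43.4% of all genes were highest. Mki67, which encodes the proliferation antigen Ki-67, stood at 51.0, 29.2 and 28.6 FPKM. Pcna, the sliding clamp of DNA replication and the most abundant member, stood at 86.9, 59.8 and 58.3 FPKM. Mcm5, a subunit of the replicative helicase and the least even member, stood at 33.4, 17.1 and 20.0 FPKM. WT2 and WT3 were close to each other in Mki67 and Pcna. None of the 20 genes reached a span of 2 times, where 14.8% of all genes did. The CVs ran from 11.9% in Birc5 to 36.9% in Mcm5. The median CV of the list was 29.0%, against 13.6% over all genes, and every gene of the list had WT1 as its highest tumor.

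Interferon-induced genes had WT1 at the bottom instead. In 17 of 18 genes WT1 was lowest, where 33.3% of all genes were lowest in that tumor. In 16 WT2 was highest, against 31.4% of all genes, and 12 spanned at least 2 times, against 14.8%. Isg15, a ubiquitin-like protein and the most abundant member, stood at 23.3, 59.9 and 46.6 FPKM. Irf7, the factor that amplifies the interferon response, stood at 19.5, 46.6 and 32.9 FPKM. Cxcl10, a chemokine that attracts T cells, had the largest CV with 2, 58 and 13 reads. It met the minimum mean of 1 FPKM only through WT2 and had to be highest there. The most even member was the RNA sensor Ifih1 with 6.93, 9.61 and 7.85 FPKM.

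**Figure D3:**
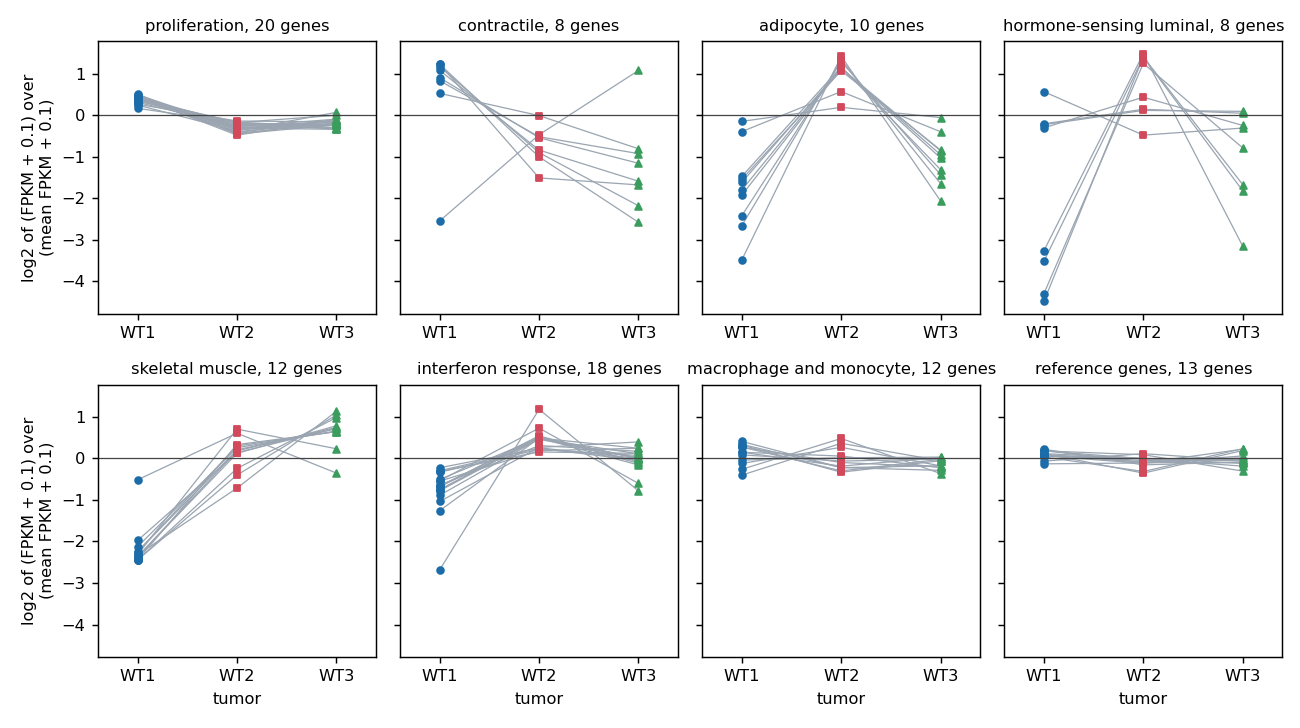
Each gene of 8 lists in the 3 tumors, as log2 of FPKM + 0.1 over mean FPKM + 0.1. Points are genes, joined by lines, with a mean of at least 1 FPKM. All 20 proliferation genes were above their mean in WT1, 10 of 10 adipocyte genes were highest in WT2, 12 of 12 skeletal muscle genes were lowest in WT1, and macrophage genes had no common high tumor. Over all genes, 31.4% were highest in WT2 and 33.3% lowest in WT1.

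Of 12 antigen presentation genes, 9 were highest in WT2, where 31.4% of all genes were. A span of at least 2 times was found in 2 of the 12, near the 14.8% of all genes. B2m stood at 572, 665 and 443 FPKM and the class I heavy chain H2-D1 at 393, 432 and 341 FPKM. H2-K1, another class I heavy chain and the first of the 2 with a wide span, was highest in WT1 with 274, 160 and 110 FPKM. The class II chains H2-Aa and H2-Ab1 and their chaperone Cd74 were highest in WT2, with H2-Aa at 24.2, 28.0 and 17.9 FPKM and Cd74 at 123, 211 and 182 FPKM. H2-Eb1, the beta chain of the second class II molecule and the other gene with a wide span, ran against them with 29.7, 1.82 and 1.79 FPKM, from 631, 36 and 35 reads. H2-T23, a nonclassical class I gene, ran the same way with 71.3, 8.78 and 7.28 FPKM, and so did its neighbor in sequence H2-T22 with 18.3, 4.47 and 4.58 FPKM. H2-T10 did not, with 7.68, 16.9 and 10.7 FPKM. These genes are polymorphic between mouse strains and resemble each other, and the part of read mapping in their values was not tested.

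Genes that respond to handling, stress and low oxygen were less uniform. Of 13 immediate early genes, 11 were lowest in WT1, where 33.3% of all genes were lowest. Fos stood at 22.3, 72.9 and 47.1 FPKM and Fosb, the least even, at 0.528, 5.72 and 1.56 FPKM. Ier2, the most abundant, was nearly flat at 78.2, 79.6 and 84.4 FPKM. None of 7 heat shock genes spanned 2 times, where 14.8% of all genes did, so few would be found in a list of this size. The constitutive chaperone Hspa8 stood at 434, 419 and 349 FPKM. The hypoxia list had 7 of 10 genes highest in WT3, where 25.2% of all genes were. A span of at least 2 times was found in 7 of 10, against 14.8% of all genes. Ldha, lactate dehydrogenase, stood at 206, 315 and 363 FPKM. The oxygen sensor Egln3 ran against it with 98.4, 33.2 and 58.2 FPKM.

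In lipid synthesis, a main activity of alveolar cells and of fat, 1 of 11 genes spanned at least 2 times, near the 14.8% of all genes. This was Scd1, stearoyl-CoA desaturase, with 85.4, 286 and 94.6 FPKM. Srebf1, the transcription factor of the pathway and its most abundant member, stood at 137, 259 and 224 FPKM. Fatty acid synthase, Fasn, stood at 22.4, 40.1 and 29.9 FPKM. WT2 was highest in all 3, as it was in 6 of the 11 genes, where 31.4% of all genes were highest in WT2.

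Of 16 signalling genes that middle T antigen engages or that act with ERBB receptors, 8 had a CV under 10%, where 35.2% of all genes did. Their median CV of 11.8% was close to the 11.9% of all protein-coding genes. Ppp2ca, the catalytic subunit of protein phosphatase 2A, stood at 44.0, 43.7 and 44.0 FPKM. Shc1, an adaptor protein, stood at 21.3, 22.6 and 20.6 FPKM and Pik3ca, the catalytic subunit of PI3 kinase, at 8.08, 8.28 and 7.83 FPKM. Erbb2, a receptor tyrosine kinase, had 15.4, 15.4 and 14.3 FPKM. In these 4 genes the tumors were hardly apart. Pik3r1, the regulatory subunit of PI3 kinase and the most abundant of the set, was lower in WT1 with 53.8 FPKM against 98.0 and 93.2. Fyn, a SRC family kinase, was the only gene of the set with a span of at least 2 times, at 8.31, 4.15 and 7.10 FPKM. Ccnd1, cyclin D1, followed with 71.2, 38.2 and 49.0 FPKM.

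The 2 genes the study is about were even in the reference tumors. Trim11 stood at 35.8, 36.3 and 39.2 FPKM, with a mean of 37.1 ± 1.84 (SD, n = 3). Kdm5c, the histone demethylase that TRIM11 was studied against, stood at 29.5, 24.7 and 29.0 FPKM, with a mean of 27.7 ± 2.62. Their CVs of 4.95% and 9.43% lay above counting CVs of 2.70% and 2.21%. Xist, transcribed from the inactive X chromosome, stood at 90.3, 81.1 and 82.3 FPKM, and the Y-linked genes Ddx3y, Eif2s3y, Kdm5d and Uty had no reads, which matched the female sex given in the methods.

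Over all 15224 genes the median CV was 13.6%, with quartiles of 7.73% and 24.9%. In 2258 genes the highest tumor was at least 2 times the lowest, in 740 at least 4 times and in 338 at least 10 times. A CV under 10% was found in 5356 genes and under 5% in 1844. Genes of low level had the wider spread. Between 1 and 5 FPKM, 27.6% of 5724 genes spanned at least 2 times, against 7.67% of 6334 genes between 5 and 20 FPKM and 5.75% of 2748 genes between 20 and 100 FPKM. Among the 418 genes of at least 100 FPKM the share was 7.66% while their median counting CV was 1.59%. The median over all genes was 312 reads and a counting CV of 5.66%. In 7899 genes the CV was over 2 times the counting CV, and in 2483 it was below it. The genes nearest to the limit of 1 FPKM were Mir1957a and Siglec1 inside it, with means of 1.00001 and 1.00006, and Frem1 and Slc13a3 outside it, with 0.9998 and 0.9978.

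**Figure D4:**
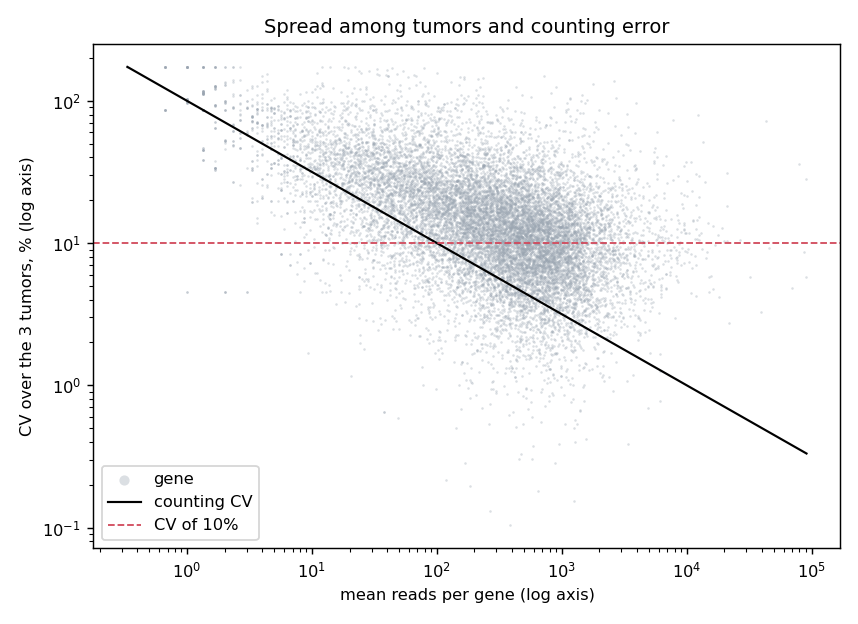
CV over the 3 tumors against mean reads for genes with a mean of at least 1 FPKM, both on log axes. Each grey point is a gene, the black line is the counting CV and the dashed line marks 10%. The cloud follows the line at few reads and lies above it at many, where the CV levels off near 10%.

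WT1 stood somewhat apart from the other tumors. On log2(FPKM + 1) Pearson's r over these genes was 0.939 between WT1 and WT2, 0.951 between WT1 and WT3, and 0.962 between WT2 and WT3. Spearman's rho was 0.936, 0.947 and 0.961. These are correlations across genes, which are not independent replicates. The number of genes at least 2-fold apart was 1579, 1354 and 990 for the same pairs. WT1 was at least 2 times below both others in 543 genes, WT2 in 255 and WT3 in 209. Of the 2258 genes with a wide span, 633 had the order WT2, WT3, WT1 from high to low, the most common of the 6 possible orders.

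The 20 genes with the largest CV at a mean of at least 5 FPKM included members of the groups already described. Csn2 and Csn1s2a were milk proteins, Areg was a hormone-sensing gene, Cidec was an adipocyte gene, Cnn1 and Myh11 were contractile and Myh4 was a skeletal myosin. Genes outside these groups included Klk10, a secreted serine protease, with 1.73, 2.58 and 31.4 FPKM. Fcgbp, a mucus protein, stood at 7.15, 3.11 and 63.6 FPKM and was thus high in WT3 only. Wif1, a secreted WNT inhibitor, stood at 20.5, 1.30 and 3.49 FPKM. Alkal2, a ligand of the kinase ALK, stood at 13.0, 0.847 and 3.70 FPKM. Both were high in WT1 and lowest in WT2. Dynlt1b, a dynein light chain, had the largest CV with 161%, from 5, 153 and 3 reads. It belongs to a family of near-identical copies, of which Dynlt1a stood at 3.35, 2.35 and 2.59 FPKM and Dynlt1f at 6.36, 4.56 and 5.03 FPKM, so its value is uncertain.

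**Figure D5:**
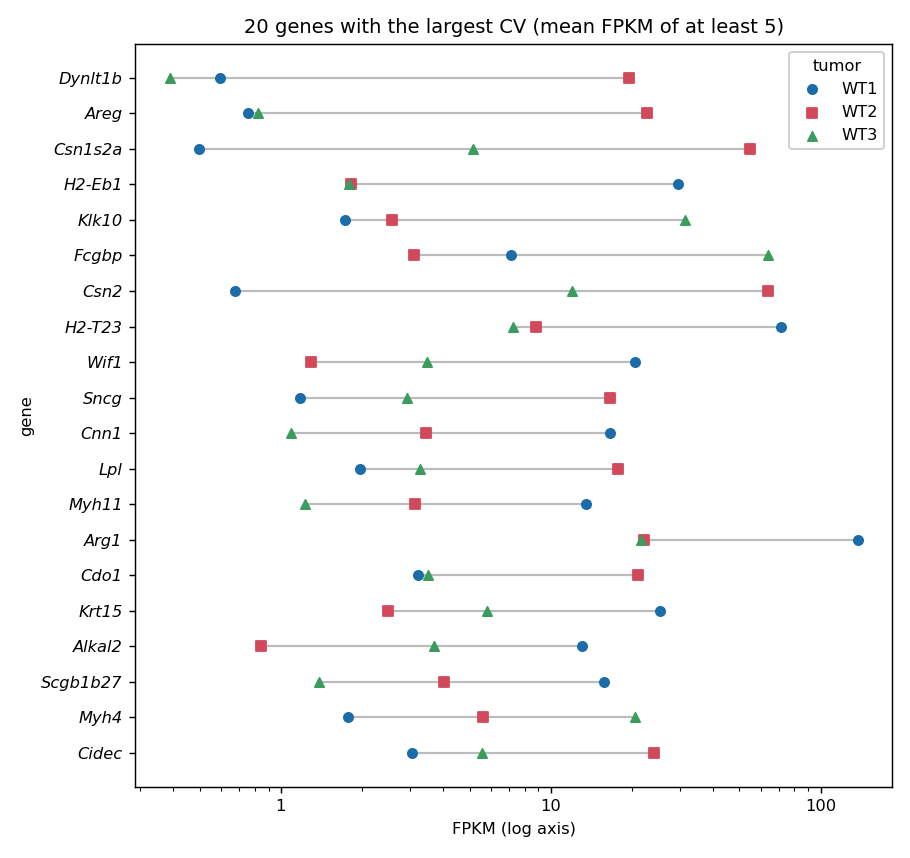
FPKM in each tumor of the 20 genes with the largest CV among genes with a mean of at least 5 FPKM, on a log axis. Points are the 3 tumors and the grey line spans them. Areg, Csn1s2a and Csn2 were highest in WT2, H2-Eb1, Arg1 and Cnn1 in WT1, and Klk10, Fcgbp and Myh4 in WT3.

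At the other end, the 20 genes with the smallest CV included Oxr1, which protects against oxidative damage, with 16.8 FPKM in each tumor. Vps52, of the retrograde transport complex GARP, stood at 21.4, 21.5 and 21.5 FPKM. Cops7a, a subunit of the COP9 signalosome, stood at 45.5, 45.9 and 45.8 FPKM. They also included Sec23a of vesicle coats, Cars2 of mitochondrial translation, and Ppp2ca and Notch3 named above. Their CVs, from 0.155% to 0.603%, were all below their counting CVs, so their order carries no information at this depth.

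Genes in common use as references were about as even as genes in general. None of 13 spanned 2 times, where 14.8% of all genes did, and 6 had a CV under 10%, where 35.2% did. Neither count is far from these shares for a list of this size. The median CV of the 13 genes, 12.1%, was near that of all genes. Eef1a1 was the most even with a CV of 4.82%, followed by Hprt with 50.4, 45.7 and 46.4 FPKM. Actb, cytoplasmic actin, stood at 340, 266 and 390 FPKM. Gapdh, a glycolytic enzyme with many processed copies in the mouse genome, was listed at only 8.72, 8.85 and 11.2 FPKM, while Pgk1 of the same pathway stood at 111, 109 and 127 FPKM. The level listed for Gapdh is therefore uncertain.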

How the data were processed

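Poly(A)-selected RNA of 3 Trim11+/+ MMTV-PyVT mammary tumors was sequenced with a non-directional kit. Per the methods, the authors mapped reads with HISAT2 to mm10 and computed FPKM with Cufflinks. The submitters' processing notes list Bowtie 0.12.2 and further builds. The FPKM values deposited by the authors were used as they stand, with no pseudocount. Division by GENCODE M21 exon lengths returned whole reads, within 0.01, for 98.8% of 26538 genes, and gave the depths. Cufflinks estimates would not be whole reads over summed exon length, so how the deposited values were made is uncertain. The mice were hybrids and the reference is C57BL/6J, so reads of divergent loci can be lost or moved.

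Where a symbol had several rows, only the one of largest mean was kept. The remaining 3 columns of the table and the human cell lines were not used. Spread was described by the CV and the ratio of highest to lowest tumor (n = 3), with no test, since there was 1 group. The labels do not say that the tumors came from separate litters. Intervals from counting cover counting error only, since reads are not independent molecules.

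Genes named were the 25 most abundant, the 20 with the largest and the 20 with the smallest CV at a mean of at least 5 FPKM, without mitochondrial, ribosomal protein, small RNA and unnamed genes, and for each of 36 lists the most abundant, the most and the least even member and markers at 0. Further genes were chosen after their values were seen. Members and lists were chosen with earlier results of these data known. Python 3.11.15, numpy 2.4.6, pandas 2.3.3 and matplotlib 3.10.9 were used. The computation was tested on simulated data. Alternatives were other minima, a pseudocount of 1, median-ratio scaling, scaling to the same summed FPKM, all rows kept, and each tumor left out. Some genes of the lists are not reported here.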

Additional observations from a re-analysis of the deposited data

How the results depend on the processing

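The count of 2258 genes with a span of at least 2 times depended on the minimum level. It was 3556 at a mean of at least 0.5 FPKM, 676 at 5 and 12284 with no minimum, and 1377 with a pseudocount of 1. Leaving out 1 tumor gave 1009 (without WT1) to 1601 (without WT3), and 1293 without WT2, since the range over 2 tumors is smaller by construction. The count of 5356 genes with a CV under 10% ran from 6132 to 8322 with 1 tumor left out, the highest without WT1, and 791 genes at 50% of the sum became 765 to 801. Median-ratio scaling, scaling to equal sums, and keeping all rows, moved none of these counts beyond 1.5 times. Neither scaling changed how many contractile or proliferation genes were highest in WT1. The same held for adipocyte, hormone-sensing and milk protein genes highest in WT2 and skeletal muscle genes highest in WT3. It held too for interferon, fibroblast and blood endothelium genes lowest in WT1. Other list counts were not rescaled, and these checks were added after seeing the data. With a minimum of 5 FPKM, an alternative also added after seeing the data, fewer genes entered. Then 6 adipocyte and 3 hormone-sensing genes were highest in WT2, and 10 interferon and 2 blood endothelium genes lowest in WT1. These were all genes of these lists at that minimum except Prom1, Ifit3 and Plvap. The share over all genes at that minimum was not computed. Of 24 summed marker lists, 17 moved by more than 1 SD without their most abundant member and none under either scaling. No paired analysis was possible because there was only 1 group. With 3 tumors no outlier test applies, and genes of few reads are limited by depth.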
